A study of Mus musculus with 4 samples.

Results

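The replication-dependent histone genes of the mouse encode the bulk of the core histones H2A, H2B, H3 and H4, around which DNA is wrapped, and the linker histone H1, which sits where DNA enters and leaves the nucleosome. They are short genes without introns that lie in tight clusters, and they are transcribed by RNA polymerase II (Pol II) chiefly while DNA is being copied. Their mRNAs end in a stem-loop in place of a poly(A) tail, and the clusters gather in nuclear bodies that concentrate NPAT, a transcription coactivator, and the machinery that cleaves the 3′ end. Precursors of osteoblasts divide before they mature, and histone mRNA is known to fall when the cells leave the cell cycle.

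The members were all protein-coding genes on chromosomes 3, 11 and 13 whose current symbol is H1f1 to H1f5 or H2ac, H2bc, H3c or H4c with a number, with the 2 genes of the Hist3 cluster added by their older names, and they numbered 64 of 21887 protein-coding genes of the RefSeq annotation of GRCm38.p6. The Hist2 cluster on chromosome 3 holds 10 of them within 50.3 kb. The Hist3 cluster on chromosome 11 holds 2, H2bu2 and H2aw. The Hist1 cluster on chromosome 13 holds 52 and was divided where neighbouring members lie more than 500 kb apart, into a first part of 22 genes (chr13:21715711-22043658) and a second part of 30 genes (chr13:23531044-23934913). By type there were 5 H1, 18 H2A, 17 H2B, 12 H3 and 12 H4 genes, with a median length of 491 bp.

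The assay was ChIP-seq for Pol II, the sequencing of DNA recovered with an antibody to a chromatin protein, in primary mouse osteoblasts, labelled as young, which had been grown from bone-derived mesenchymal stem cells in osteogenic medium. The comparison was between untreated cells and cells given OSS_128167, an inhibitor of SIRT6, a deacylase of chromatin that depends on NAD. Each condition had 1 Pol II library and 1 input, 4 samples in all, and the lists of Pol II peaks from both conditions are described here. The untreated samples are titled as WT, and untreated here means only that the title names no treatment, since the treatment field of all 4 samples names the inhibitor, while the name of the list from treated cells speaks of SIRT6. Since neither condition was replicated, nothing below is tested between conditions, and an exact 95% interval beside a share covers the counting of genes or peaks only.

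The list from untreated cells holds 1694 peaks, with a median fold enrichment (the deposited ratio of signal to background at a peak) of 3.26, and the list from treated cells holds 40748, with a median of 2.87. The sequencing depth behind either list is unknown, and so a gene without a listed peak is not shown to lack Pol II. Marker genes fixed for the cell types such a culture could hold were read from the list of treated cells. Of 10 osteoblast markers 5 had a peak, all 5 with a false discovery rate (FDR) of at most 0.05, where 37.8% of all protein-coding genes had a listed peak and 11.5% one at that FDR. They were Col1a1 at a fold of 9.42, Col1a2 at 9.03, Sparc at 7.77, Runx2 at 4.35 and Sp7 at 4.13, while Alpl, Bglap, Ibsp, Spp1 and Dmp1 had none. Peaks were also listed at 3 of 5 macrophage, 2 of 3 chondrocyte and 2 of 3 endothelial markers, of which 2, 1 and 0 met that FDR, and at none of 3 osteoclast, 3 adipocyte and 3 red cell markers. The part of these cells in the values of the histone genes was not tested. In the untreated list only the osteoblast markers Runx2 and Col1a2 had a peak, each with an FDR above 0.05.

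The stretches of 150 bases before the annotated starts of 8 members are given as examples of members with and without peaks. They come from RefSeq (GRCm38.p6) and are written 5′ to 3′ along the gene, with capitals for CCAAT boxes (CCAAT, or ATTGG on the other strand), octamers (ATTTGCAT or ATGCAAAT), TATA boxes (TATAAA or TTTATA) and H1 boxes (AAACACA or TGTGTTT). H2ac18 (chr3:96245347-96245496, plus strand) reaches the peak of highest fold enrichment with its end only. Its bases printed here lie in a separate peak with a fold of 8.59. H2bc18 (chr3:96269550-96269699, plus strand) and H4c4 (chr13:23581418-23581567, plus strand) had peaks in both lists. H1f3 (chr13:23554882-23555031, plus strand) had the highest fold of any H1 gene, and H4c11 (chr13:21734884-21735033, plus strand) had the lowest fold of any member with a peak. H1f1 (chr13:23763518-23763667, plus strand), H2ac1 (chr13:23934287-23934436, plus strand) and H2aw (chr11:58954535-58954684, plus strand) had no peak in either list.
H2ac18: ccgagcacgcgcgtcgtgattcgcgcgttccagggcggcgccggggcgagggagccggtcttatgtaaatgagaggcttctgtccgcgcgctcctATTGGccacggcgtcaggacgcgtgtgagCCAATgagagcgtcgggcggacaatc
H2bc18: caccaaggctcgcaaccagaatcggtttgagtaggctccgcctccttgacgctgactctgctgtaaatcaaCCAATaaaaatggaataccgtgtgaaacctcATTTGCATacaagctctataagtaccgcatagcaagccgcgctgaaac
H4c4: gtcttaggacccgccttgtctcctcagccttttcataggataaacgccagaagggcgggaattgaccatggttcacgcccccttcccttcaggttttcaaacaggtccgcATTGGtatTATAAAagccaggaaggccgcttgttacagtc
H1f3: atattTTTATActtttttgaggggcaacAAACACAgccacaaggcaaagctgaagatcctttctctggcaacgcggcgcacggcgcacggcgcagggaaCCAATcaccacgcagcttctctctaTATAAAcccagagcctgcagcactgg
H4c11: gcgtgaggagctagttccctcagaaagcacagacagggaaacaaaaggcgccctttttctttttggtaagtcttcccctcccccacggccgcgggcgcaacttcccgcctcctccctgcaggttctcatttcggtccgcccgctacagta
H1f1: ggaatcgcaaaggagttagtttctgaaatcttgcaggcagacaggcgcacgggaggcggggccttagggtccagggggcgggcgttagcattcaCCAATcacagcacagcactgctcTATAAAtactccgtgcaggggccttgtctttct
H2ac1: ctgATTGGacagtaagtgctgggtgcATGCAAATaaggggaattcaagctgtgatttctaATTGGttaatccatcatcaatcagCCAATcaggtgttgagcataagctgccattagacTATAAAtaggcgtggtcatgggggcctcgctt
H2aw: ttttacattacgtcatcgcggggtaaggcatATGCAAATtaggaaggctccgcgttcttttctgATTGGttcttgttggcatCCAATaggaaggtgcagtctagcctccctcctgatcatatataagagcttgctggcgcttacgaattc

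In OSS_128167-treated cells, nearly all clustered histone genes carried a Pol II peak. A listed peak lay inside or within 1000 bp of 59 of the 64 members, or 92.2% (95% interval 82.7% to 97.4%), against 37.8% of all protein-coding genes. With peaks of an FDR of at most 0.05 the count was 58, or 90.6% (80.7% to 96.5%), against 11.5% of all protein-coding genes. Short genes of other kinds seldom had a peak. Among the other 1518 protein-coding genes up to 1000 bp long, 5.67% had a listed peak and 1.25% had one at that FDR. The peak overlapped the gene itself at 56 members, which 34.4% of all protein-coding genes also had. In the untreated list a peak overlapped the gene itself at 3 members, beside 2.17% of all protein-coding genes.

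In untreated cells, 3 of the 64 members had a listed peak, or 4.69% (0.977% to 13.1%), against 2.30% of all protein-coding genes. None had one with an FDR of at most 0.05 (0 of 64, upper limit of the exact interval 5.60%), against 0.132% of all protein-coding genes. Of other protein-coding genes up to 1000 bp long, 0.527% had a listed untreated peak, and 0.0659% had one at that FDR. The lists differ greatly in length, so the members were also counted as a share of each. Peaks at members made up 0.177% of untreated peaks (3 of 1694, 0.0365% to 0.517%) and 0.160% of OSS_128167 peaks (65 of 40748, 0.123% to 0.203%). Of all protein-coding genes with a listed peak, members were 0.596% in the untreated list (0.123% to 1.73%) and 0.714% in the OSS_128167 list (0.544% to 0.920%), while members are 0.292% of protein-coding genes. By that measure the intervals of the lists overlapped. At an FDR of at most 0.05 members were 58 of 2520 genes in the OSS_128167 list, or 2.30% (1.75% to 2.97%), and 0 of 29 in the untreated list, for which the interval reaches 11.9%.

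**Figure D1:**
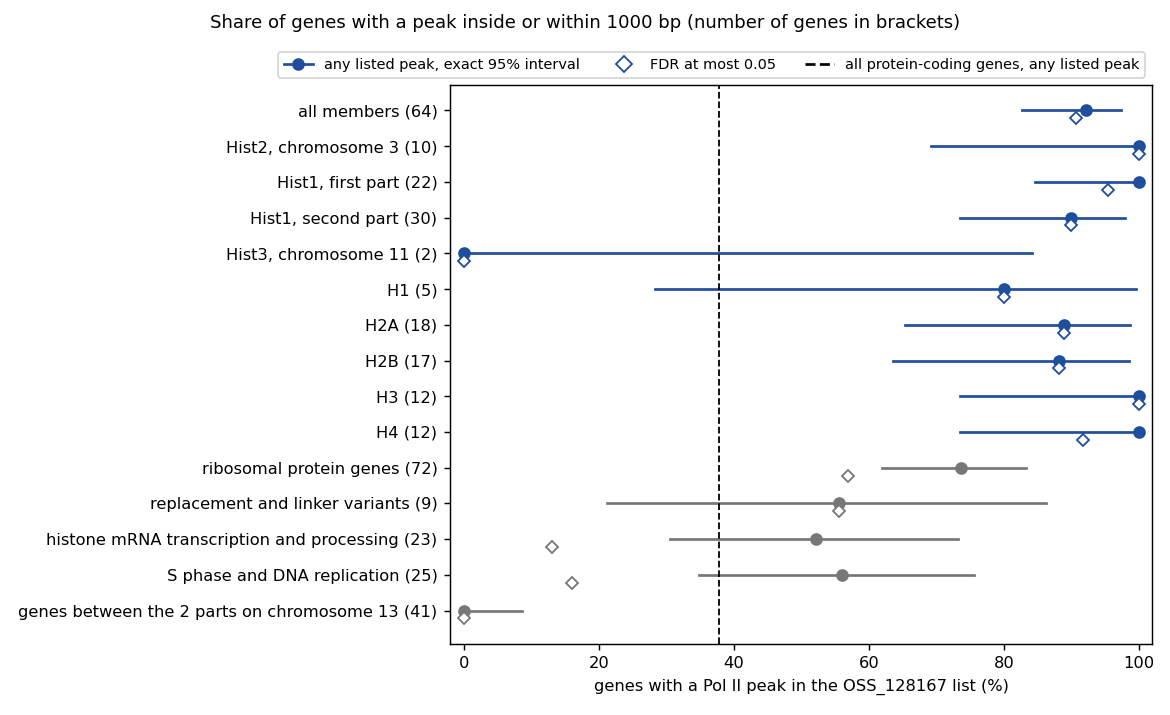
Share of genes (%) with a Pol II peak inside or within 1000 bp in the OSS_128167 list, for all members, each cluster, each histone type and 5 compared lists; filled circles stand for any listed peak, bars for exact 95% intervals over genes, diamonds for peaks with an FDR of at most 0.05, and the dashed line for all protein-coding genes (37.8%). Circles of every member group but the Hist3 genes lie at 80% or above, and circles and diamonds nearly coincide for the members.

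The 3 members with a peak in both lists were H4c4, H3c13 and H2bc18. The H4 gene H4c4 (chr13:23581568-23581969) had an untreated peak of 204 bp with a fold of 3.26, a pileup (the height of stacked reads, in deposited units) of 5.43 and an FDR of 1. That peak covered 13.7% of the gene. In the OSS_128167 list H4c4 lay whole in a peak of 4630 bp that also reached H2bc6, with a fold of 8.30, a pileup of 33 and an FDR of 5.76e-19. Values of fold and pileup were set within each list by its authors and are not compared between them.

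The H3 gene H3c13 and its neighbour H2bc18 shared 2 untreated peaks, of 432 bp with a fold of 2.29 and of 374 bp with a fold of 2.65. Both folds were below the median of the untreated list, and their pileups of 8.15 and 9.78 were above its median of 5.98. The longer covered the end of H3c13 and the other 75.9% of H2bc18. In the OSS_128167 list a peak of 3305 bp took in both genes whole, with a fold of 9.44, a pileup of 45 and an FDR of 6.9e-28. All 3 untreated peaks at members lay inside OSS_128167 peaks, whereas 103 of the 1694 untreated peaks, or 6.08%, overlapped any OSS_128167 peak.

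The clusters differed in the share of genes with a peak and in its height. In the OSS_128167 list all 10 Hist2 genes had a peak (69.2% to 100%), as did all 22 genes of the first part of Hist1 (84.6% to 100%) and 27 of 30 in the second part (90.0%, 73.5% to 97.9%). Neither Hist3 gene had a peak, which with 2 genes allows a share of up to 84.2%. The median over genes of the highest fold at the gene was 9.94 in Hist2 (6.37 to 22.8), 6.48 in the first part of Hist1 (2.52 to 12.9) and 8.42 in its second part (3.59 to 12.6). Median pileups were 45 in Hist2 (35 to 110), 17.5 in the first part of Hist1 (6 to 35) and 25 in its second part (12 to 35). Every Hist2 gene thus had a pileup at least as high as that of any Hist1 gene. Over all 59 members with a peak the median fold was 8.42 and the quartiles were 6.24 and 9.94, beside 3.10 over the 8264 protein-coding genes with a peak.

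Clusters can also be read against their chromosomes. On chromosome 13, 28.5% of protein-coding genes had an OSS_128167 peak, on chromosome 3 44.5% and on chromosome 11 38.3%, and the median fold of all peaks was 2.87 on each of the 3. Members held 58 of the 669 peaks of chromosome 13, or 8.67%. Of the 146 peaks there with an FDR of at most 0.05 they held 43, or 29.5%. On chromosome 3 members held 7 of 2583 peaks, 0.271%, and on chromosome 11 none of 2357. The untreated list holds 73 peaks on chromosome 3, of which 2 were at members, 79 on chromosome 11 with none, and 18 on chromosome 13 with 1.

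**Figure D2:**
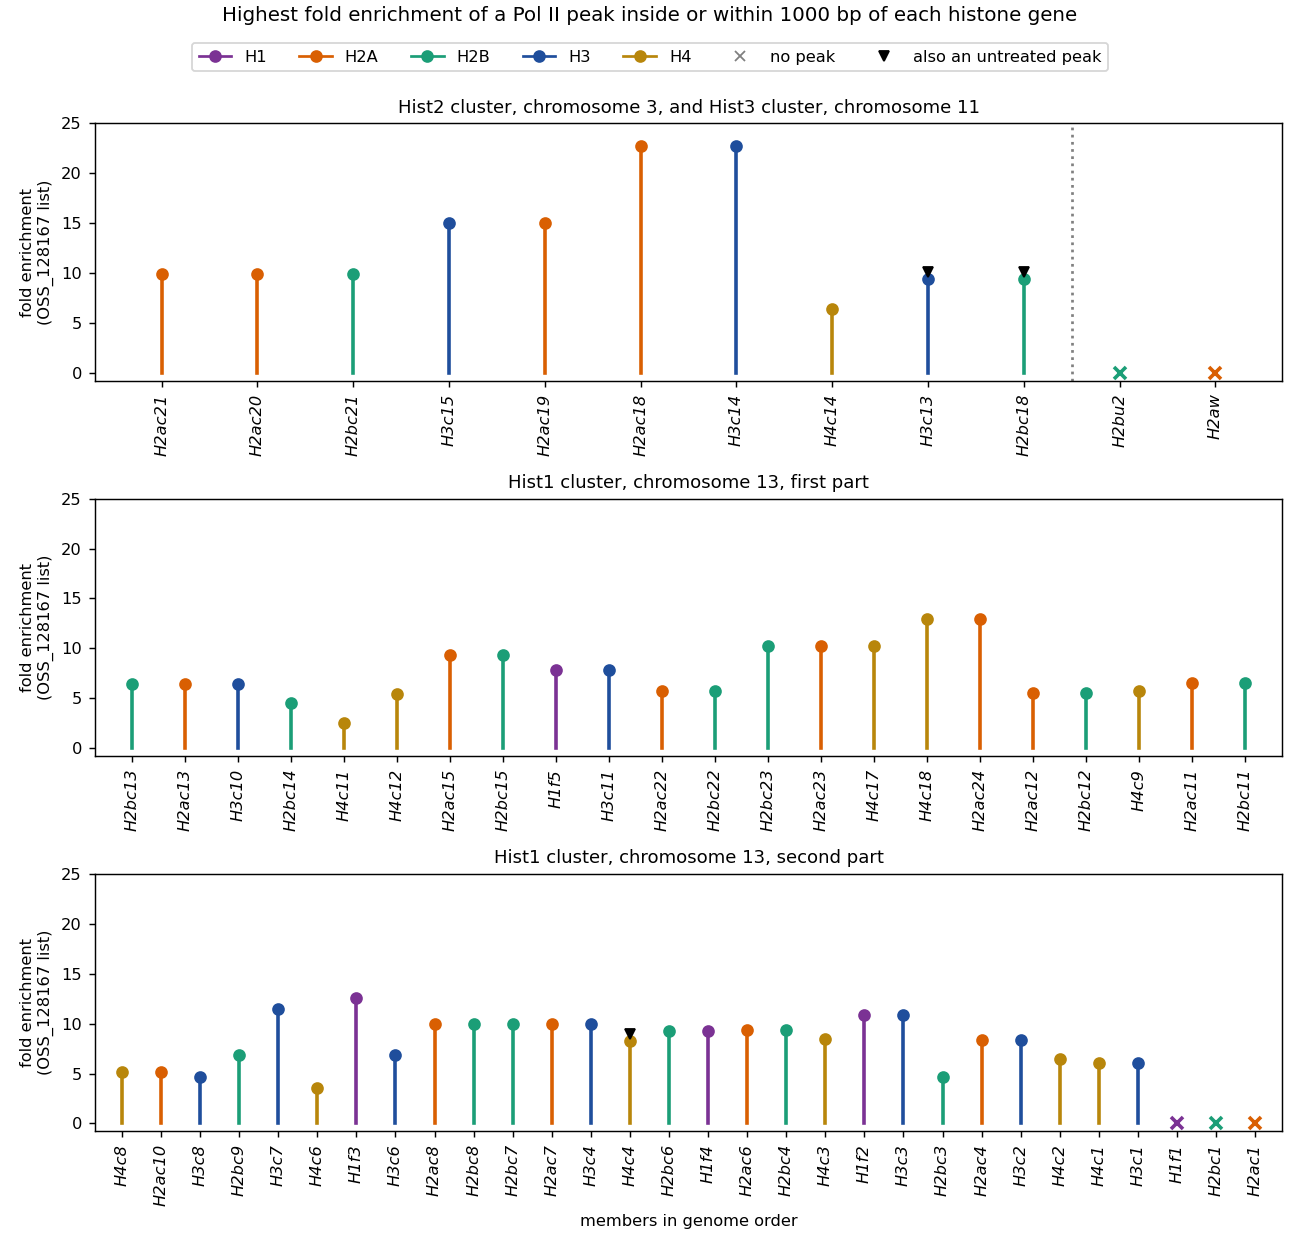
Highest fold enrichment (OSS_128167 list, linear axis) of a Pol II peak inside or within 1000 bp of each of the 64 members, in genome order, coloured by histone type; crosses are the 5 members with no peak and black triangles the 3 members that also had an untreated peak. H2ac18 and H3c14 stand highest at 22.8, neighbours that share a peak have equal heights, and the empty places are both Hist3 genes and the last 3 genes of the second part of Hist1.

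In the Hist2 cluster the highest values were at H2A and H3 genes. H2ac18 and H3c14 shared the peak at chr3:96245966-96250593, which is 4628 bp long with a fold of 22.8, a pileup of 110 and an FDR of 2.7e-109, the highest fold of the list. It covered H3c14 whole but only the end of H2ac18, whose start lay in a separate peak of 660 bp with a fold of 8.59. H3c15 and H2ac19 shared a peak of 7289 bp (chr3:96233120-96240408), the longest at any member, with a fold of 15.1 and a pileup of 80, which ranked 7 by fold. H2ac20, H2ac21 and H2bc21 lay at a peak with a fold of 9.94 and a pileup of 42. The lowest of the cluster was H4c14, its H4 gene, at a fold of 6.37 and a pileup of 35. H2bc21, a gene model of 2667 bp, had no base in a peak, since the peak ended at 96221033 and the gene begins at 96221072. None of these 8 genes had an untreated peak, beside 2.30% of all protein-coding genes.

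In the first part of Hist1 the highest fold, 12.9, was at a peak of 3141 bp over the H4 gene H4c18 and the H2A gene H2ac24 (chr13:21831987-21835127; pileup 35, FDR 8.24e-29). The next was a peak with a fold of 10.3 and a pileup of 29 at H2bc23, H2ac23 and H4c17. H2bc14, an H2B gene, had a fold of 4.51. H4c11 was lowest of all members with a peak: its 2 peaks had folds of 2.26 and 2.52 and FDRs of 0.642 and 0.676, and neither touched the gene. It was thus the only member that had listed peaks but none at an FDR of at most 0.05. No gene in this part of the cluster had an untreated peak (0 of 22, upper limit 15.4%), beside 2.30% of all protein-coding genes, a share within that limit.

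In the second part of Hist1 the highest fold, 12.6, was over H1f3, the gene of linker histone H1.3 (chr13:23554881-23556766; 1886 bp, pileup 34, FDR 1.54e-27). The H3 gene H3c7 had a fold of 11.5 with a pileup of 31. H1f2 and H3c3 shared a peak of 6763 bp with a fold of 10.8 and a pileup of 35. A peak of 6498 bp with a fold of 9.93 (chr13:23571254-23577751) reached 5 members, H2ac8, H2bc8, H2bc7, H2ac7 and H3c4, more than any other peak. The lowest was the H4 gene H4c6, at a fold of 3.59 with an FDR of 0.0153, followed by H2bc3 at 4.61. The untreated list had a peak at 1 of these 30 genes, H4c4, which is near the 2.30% of all protein-coding genes.

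No peak was listed in either list for 5 members: H1f1, H2bc1, H2ac1, H2bu2 and H2aw. H2ac1 and H2bc1 encode the H2A and H2B variants of male germ cells, TH2A and TH2B, and H1f1 the linker histone H1.1. These 3 are the last genes of the Hist1 cluster at its far end, and H2bu2 and H2aw are the whole of Hist3. A further 3 histone genes lay outside the symbol rule. H4bc24, whose older name is Hist1h2br, lay within the reach of the peak shared by H4c18 and H2ac24 and had 52.3% of its bases in a peak. H1f6, which encodes the testis linker histone H1t, had 91.6% of its bases in peaks, with a fold of 8.42 from the peak that also covers H4c3, its neighbour. The H4 gene H4f16 on chromosome 6, outside the clusters, lay whole in a peak with a fold of 3.58 and an FDR of 0.0101. Of 5 histone genes fixed as germ cell markers, H1f6, H1f7, H1f8, H2ac1 and H2bc1, H1f6 was the only one with a peak. None of the 3 genes outside the rule had an untreated peak, beside 2.30% of all protein-coding genes.

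By histone type, a listed OSS_128167 peak was found at 12 of 12 H3 genes, 12 of 12 H4 genes, 16 of 18 H2A genes, 15 of 17 H2B genes and 4 of 5 H1 genes. Of all protein-coding genes 37.8% had one, a share that lies within the interval of H1 alone. With so few genes in a type the intervals are wide, from 28.4% to 99.5% for H1 and 73.5% to 100% for H3 and H4, and they overlap. Median folds were 10.1 for H1 (7.86 to 12.6), 9.64 for H2A (5.11 to 22.8), 9.27 for H2B (4.51 to 10.3), 8.91 for H3 (4.67 to 22.8) and 6.24 for H4 (2.52 to 12.9). H4 had the lowest median in each cluster that holds peaks: 6.37 at the only H4 gene of Hist2, 5.75 in the first part of Hist1 and 6.29 in the second. The ranges of all types overlapped, and types that share a peak share its value, so this order is a description. In the untreated list an H2B, an H3 and an H4 gene had a peak, and no H1 or H2A gene. With 2.30% of all protein-coding genes having one, these counts do not set the types apart.

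The peaks at members were long and high for the list. The 65 OSS_128167 peaks had a median length of 1351 bp (226 to 7289), beside 278 bp over the whole list, and a median pileup of 15 beside 8. Among peaks with an FDR of at most 0.05, the 49 at members had a median length of 1912 bp beside 319 bp and a median fold of 6.47 beside 3.62. Of the 50 peaks of highest fold, 14 were at members, and of the 50 longest 6 were. Counted by gene, 33 of the 70 protein-coding genes with a fold of at least 8 were members. Sharing was common, since 32 of the 65 peaks reached more than 1 member. Median lengths were 3271 bp for the 7 peaks of Hist2, 820 bp for the 28 of the first part of Hist1 and 1461.5 bp for the 30 of its second part. The 3 untreated peaks at members had a median length of 374 bp, beside 251 bp over that list.

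**Figure D3:**
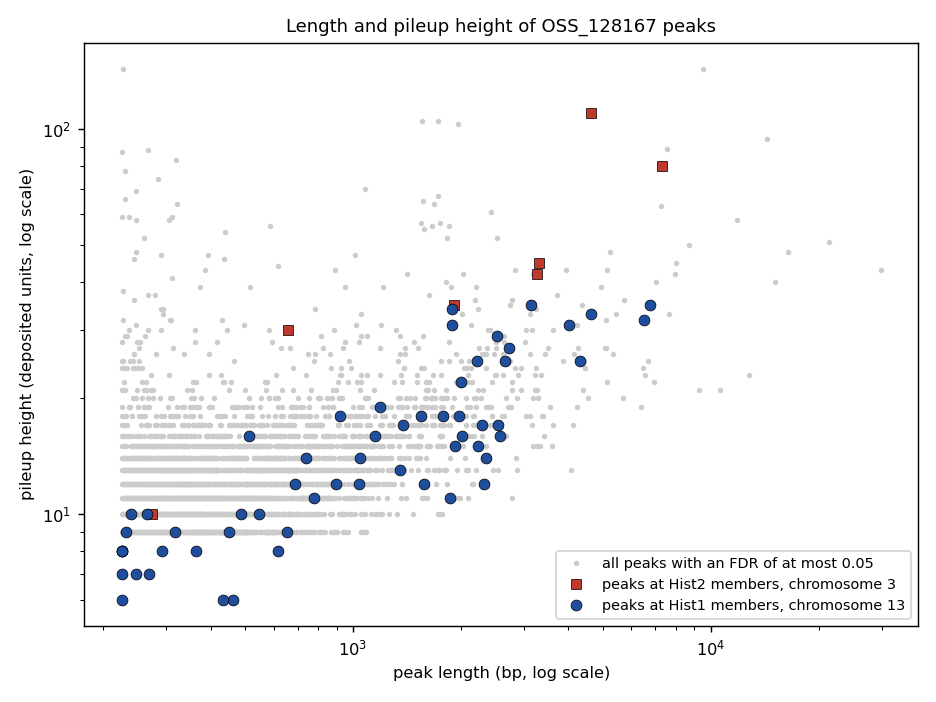
Length (bp, log axis) and pileup height (deposited units, log axis) of OSS_128167 peaks; grey points are all peaks with an FDR of at most 0.05, red squares all listed peaks at Hist2 members and blue circles all listed peaks at Hist1 members. Member peaks spread to the upper right, up to 7289 bp and a pileup of 110, and none of the Hist1 peaks exceeds a pileup of 35.

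Across the members the gene body was usually covered whole. The median share of a gene's bases in an OSS_128167 peak was 100%: 40 of 64 genes were covered in full, 52 at 50% or more, and 8 not at all. Those 8 were the 5 genes without a peak and H2bc21, H2bc13 and H4c11, whose peaks lay beside them. Among the short genes H2ac12, an H2A gene of 522 bp, had 4.79% of its bases in a peak. Low shares also came with long H2B gene models. H2bc6, annotated over 37455 bp, had 13.0% of its bases in peaks at its ends, and H2bc22, over 14079 bp, had 3.26%. In H2bc4, over 8282 bp, 6 peaks covered 76.3%.

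At equal distances from the annotated start, more members were covered downstream than upstream. For the 51 members up to 1000 bp long that had a peak and a known strand, 35.3% lay in a peak at 2000 bp before the annotated start, 60.8% at 1000 bp before it and 51.0% at 200 bp before it. The share was 84.3% at the start and 100% at 700 bp after it. It was still 84.3% at 1000 bp and 60.8% at 2000 bp after the start, beyond the end of all these genes. Neighbouring histone genes add to both sides of such a profile. In the 6 members with no other histone gene within 3000 bp, none was covered anywhere from 2000 to 200 bp upstream, and all 6 were covered at 500 to 700 bp downstream.

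Among these 6, 5 had a peak over the gene. At H1f3 the peak began 151 bp before the start and ran 959 bp past the end of the gene. At H4c6 it began 136 bp before the start and ran 1056 bp past the end, and at H4c2 it began 46 bp inside the gene and ran 973 bp past the end. H1f2 had a peak from 106 bp upstream to 5932 bp downstream, where it took in H3c3. H3c6 was the exception: its peak began 180 bp upstream and stopped short of the end of the gene. A separate peak of H3c6 lay past that end (chr13:23560346-23561124), with a fold of 4.31 and an FDR of 0.00235. Counting only the peak over the gene, the downstream side was the longer in 4 of the 5.

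**Figure D4:**
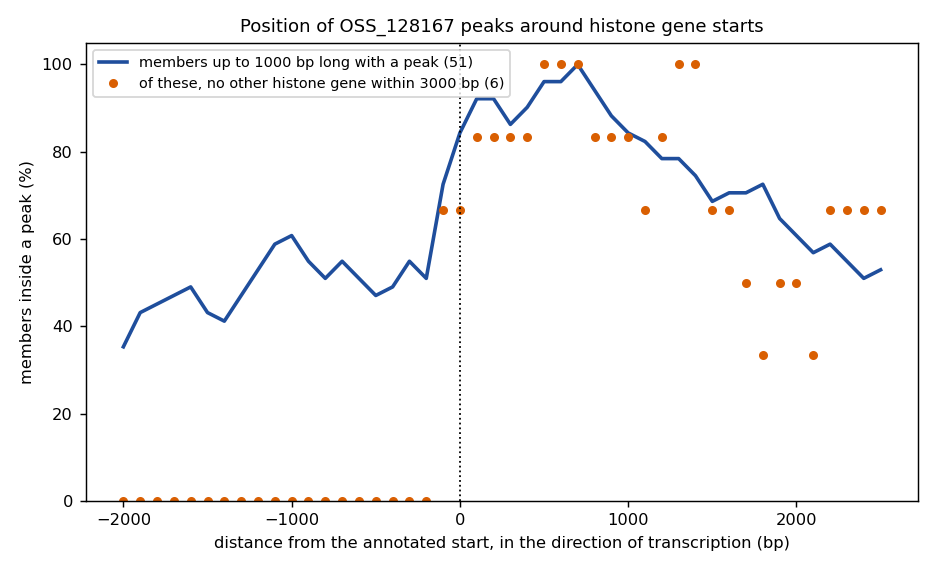
Share of members (%) inside an OSS_128167 peak at each distance (bp, every 100 bp) from the annotated start, in the direction of transcription; the line stands for 51 members up to 1000 bp long and the points for the 6 of them with no other histone gene within 3000 bp. The line lies between 35.3% and 60.8% from 2000 to 200 bp upstream and climbs from 51.0% at 200 bp upstream to 100% at 700 bp downstream, and the points are at 0 throughout 2000 to 200 bp upstream.

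H2A and H2B genes often stand head to head over a short common promoter. There were 11 such neighbouring pairs within 1000 bp, 163 to 280 bp apart, of which 9 are divergent and 2 have a gene with no strand in the tables used. At least 1 peak was within reach of both genes in 10 of the 11 pairs, the exception being the testis pair H2bc1 and H2ac1. In 6 pairs a peak covered the whole gap and lay over both genes, as at H2ac15 and H2bc15 with a fold of 9.34. The gap was covered in part in 3 pairs, H2bc13 and H2ac13 (22.8%), H2ac8 and H2bc8 (81.6%) and H2ac20 and H2bc21 (80.1%). At H2ac12 and H2bc12 peaks lay on either side and the 177 bp between the genes were free of any. No such pair had an untreated peak, which 2.30% of all protein-coding genes had.

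Between and beside the histone genes, peaks were fewer and lower. OSS_128167 peaks covered 37.6% of the Hist2 span, 12.1% of the first and 15.5% of the second part of Hist1, and 0.156% of the 1487 kb between these parts. The 41 protein-coding genes in that stretch, many of them Vmn1r vomeronasal receptors of sensory neurons, had no OSS_128167 peak (0 of 41, upper limit 8.60%). Their median length was 936 bp, and 5.67% of non-member protein-coding genes up to 1000 bp long had a listed peak, which lies below that limit. Within Hist1, 1 of 3 genes of other kinds in the first part, the thymic protease gene Prss16, and 1 of 6 in the second, the transporter gene Slc17a3, had a peak, with folds of 2.87 and 2.52 and FDRs of 0.377 and 0.676. Hfe, whose product regulates iron uptake, and Trim38 had none. Of all protein-coding genes 37.8% had a listed peak, and counts over so few genes cannot be told from that share. Of 31 tRNA genes in the first part and 46 between the parts, which are transcribed by Pol III, none had a peak within 250 bp. No share over all tRNA genes is given here for comparison. Peaks inside the spans but away from members numbered 13 in the first part, 12 in the second and 3 in Hist2, with a highest fold of 6.11. Of these, 8, 4 and 1 met an FDR of at most 0.05. They include peaks at H4bc24 and H1f6, histone genes outside the symbol rule. In the untreated list no peak lay in these spans other than the 3 at members.

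Some histone genes are near copies of each other, so reads from one may be placed at another. Among non-overlapping promoter windows, those of H3c14 and H3c15 shared an identical run of 231 bases, those of H2ac18 and H2ac19 one of 219, and those of H4c17 and H4c18 one of 285. H2ac24 shared a run of 233 bases with H2bc23 and one of 200 with H2ac23. No source used here says how reads that fit several places were treated, and the part of this in the values of these 9 genes was not tested. Without them, 50 of 55 members had an OSS_128167 peak and the median fold was 7.86, an alternative added after the data had been seen. Gene bodies were not compared, and 5 members had no promoter window, so the 55 may still hold near copies.

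Promoters were scanned on both strands from 250 bases before to 50 after the annotated start, for the 59 members in the RefSeq promoter table. Each motif was counted on its own, and sites may overlap. Windows of head-to-head neighbours overlap, so a site between such genes can count for both. The CCAAT box, the site of NF-Y, was in 51 of 59 members, or 86.4%, beside 37.4% of all 32851 windows. It was in every H1, H2A, H2B and H3 promoter and in 3 of 11 H4 promoters, and 43 members had more than 1. The octamer ATTTGCAT, the site of Oct-1, was in 7 of 18 H2A and 7 of 15 H2B promoters and in no other type, 23.7% of members beside 1.74% of windows. TATAAA was in 35 members, or 59.3%, beside 13.6% of windows. AAACACA, the H1 box, was in H1f2, H1f3, H1f4 and H1f5, in no copy in H1f1, and in 13.6% of members beside 7.18% of windows. It was also in 2 of 18 H2A and 2 of 15 H2B promoters.

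Members without a peak held these motifs too. The 5 genes without a peak all had a CCAAT box, 3 had the octamer and 4 had TATAAA, as the sequences of H1f1, H2ac1 and H2aw show. The octamer of H2ac1 also lies in the overlapping window of H2bc1 and counts for both. An H1 box was in the scanned windows of 2 of the 5, H2ac1 and H2bc1. H2ac1 has 3 CCAAT boxes, an octamer and a TATA box in the 150 bases printed. H2ac18, whose end reaches the peak of highest fold, has 2 CCAAT boxes there and no octamer or TATA box of the searched letters. H3c14, which that peak covers whole, has none of the 4 motifs in the 150 bases before its start. H4c11 has none of the 4 motifs in the bases printed. The longer scanned windows of both H2ac18 and H4c11 do hold a TATA box, and that of H3c14 holds a CCAAT box. A match to such letters is no proof of a bound site, and a missing match says only that these letters are not in the window.

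**Figure D5:**
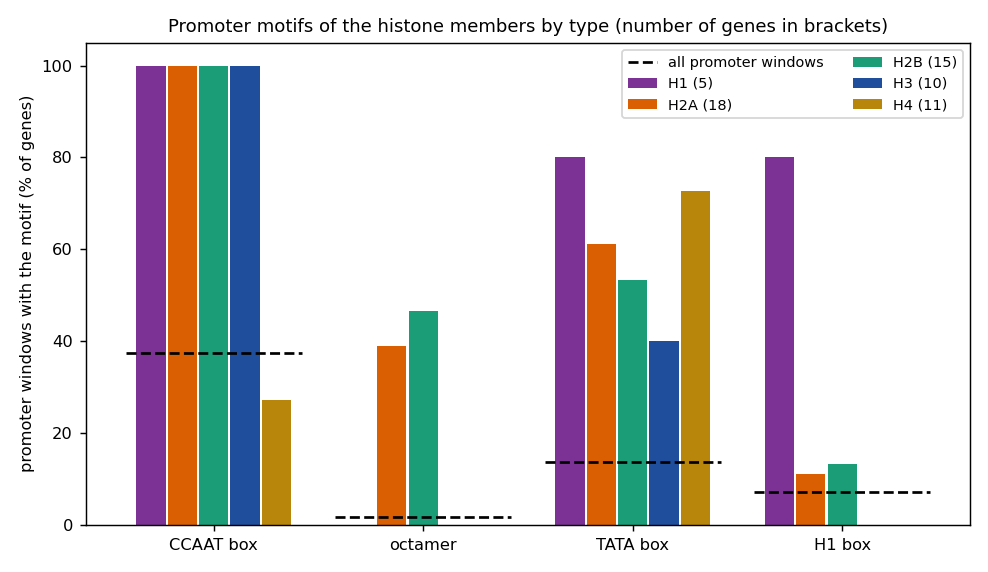
Share of promoter windows (% of genes, bars from 0) that hold each of 4 motifs, by histone type, for the 59 members with a window; dashed lines give the share over all 32851 windows. The CCAAT box bars reach 100% for H1, H2A, H2B and H3 and 27.3% for H4, the octamer appears only for H2A and H2B, and the H1 box bar of the H1 genes is at 80.0%.

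Genes with related roles were read in the same way in the OSS_128167 list. The ribosomal protein genes, a compact and highly transcribed group, had a peak at 53 of 72 genes, or 73.6% (61.9% to 83.3%). At an FDR of at most 0.05 they had one at 41 of 72. The shares over all protein-coding genes were 37.8% and 11.5%. Ribosomal protein genes had a median fold of 3.66 and a highest of 8.32. That highest value is close to the median fold of the members, 8.42, and above the 7.86 found without the near-copy members. Median pileups were 14 for ribosomal protein genes and 25 for members with a peak, and the highest were 40 and 110. Of 9 genes of replacement and other linker variants, which are expressed outside S phase too, 5 had a peak, all with an FDR of at most 0.05. They were H3f3b, one of the genes of H3.3, at 20.7, H2ax, whose product marks DNA breaks, at 8.12, H1f0 at 4.61, H3f3a at 4.15 and H2az1 at 3.95. H1f10, H2az2, Macroh2a1 and Macroh2a2 had none. No gene of either group had an untreated peak, beside 2.30% of all protein-coding genes.

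The genes that transcribe histone genes and process their mRNA mostly had lower folds than the histone genes themselves. Of 23 measured genes 12 had a listed peak, or 52.2% (30.6% to 73.2%), with a median fold of 3.02, and 3 had one with an FDR of at most 0.05, where 11.5% of all protein-coding genes did, so the count is near the background. Those 3 were Rnu7, the U7 RNA that directs 3′ end cleavage, at a fold of 4.07, Nfyb, a subunit of NF-Y, at 3.71, and Pou2f1, which encodes Oct-1, at 3.55. Npat had a fold of 2.41 with an FDR of 0.676 and Slbp, the stem-loop binding protein, 2.67 with an FDR of 0.257. Hinfp, an activator of H4 genes, Lsm10, Lsm11 and Zfp473, which belong to or bind the U7 particle, had no peak. None of the 23 had an untreated peak, beside 2.30% of all protein-coding genes.

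Of 25 genes of S phase and DNA replication 14 had a listed peak, or 56.0% (34.9% to 75.6%), with a median fold of 3.05. An FDR of at most 0.05 was met by 4, near the background of 11.5%: Nasp, a histone chaperone, and Mki67, a marker of dividing cells, both at a fold of 3.61, the helicase subunit Mcm7 at 3.45 and Top2a, a topoisomerase, at 3.08. Pcna, the sliding clamp of DNA polymerase, had a fold of 3.03 with an FDR of 0.112. Mcm3, Mcm4, Rrm2, Cdc6 and E2f1 were among the 11 without a peak. Gins1 alone of the 25 had an untreated peak, with a fold of 3.54 and an FDR of 1. The share with a listed peak in both of these lists was above the 37.8% of all protein-coding genes, and the background lay within both intervals.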

How the data were processed

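Pol II ChIP-seq peak lists of 1 untreated and 1 OSS_128167-treated osteoblast library were used, without separate use of the 2 inputs. The submitters' processing notes name fastp, BWA and the build mm10. No source used here gives the peak caller or its settings. For every peak, called per library, the authors deposited a pileup (a signal height), a fold enrichment (a ratio), an FDR (an adjusted p-value) and an unadjusted p-value. The largest unadjusted p-value was 0.00956 (untreated) and 0.00999 (OSS_128167), so many listed peaks are weak.

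A gene had a peak when a listed interval overlapped it, or its flanks of 1000 bp, by at least 1 bp. Its fold was the highest among those peaks. Gene bounds, strands and promoter windows came from RefSeq tables of GRCm38.p6. No protein sequences and no genome sequence were used here. Intervals are exact (Clopper-Pearson, 95%), cover counting only and treat genes as independent, which neighbours that share a peak are not. PCR duplicates and read totals could not be judged from the lists, so depth is unknown. The overlap counts were tested on simulated peaks at 300 genes, where 50 of 50 planted genes were recovered. Alternatives changed the window, the threshold, the position of a peak and the names taken in. Named genes were all members of interest by peak, fold or coverage, and up to 6 genes of highest fold in each pathway list. The members and lists were chosen with earlier results of these data known. Python 3.11.15, pandas 2.3.3, numpy 2.4.6, scipy 1.17.1 and matplotlib 3.10.9 were used.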

Additional observations from a re-analysis of the deposited data

How the results depend on the processing

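With 1 library per condition and no replicate, no spread could be measured, and neither depth nor read placement could be judged from the lists. No paired analysis was possible because each condition had 1 library and no test was made. Of 69 alternative values for 26 results, 59 stayed within the set tolerance and 10 moved, each of them a count of untreated peaks or of overlap with them that went to 0. With an FDR of at most 0.05, members with an untreated peak went from 3 to 0, in the second part of Hist1 from 1 to 0, in Hist2 from 2 to 0, and among H2B, H3 and H4 genes from 1 to 0 each. Under the same FDR, distinct untreated peaks at members went from 3 to 0, and peaks overlapping between the lists went from 3 to 0 for untreated and from 2 to 0 for OSS_128167. A p-value of at most 1e-05 also took the untreated members from 3 to 0. The OSS_128167 count of 59 members was 56 when the peak had to overlap the gene, 59 with 250 bp, 60 with 5000 bp, 58 at either stricter threshold, 49 by peak centre and 45 when each peak counted for 1 gene. With current symbols alone it was 59 of 62, and with every older name 61 of 66. All these counts were within the tolerance, which thus let a fall from 59 to 45 pass. So was the median covered share of member genes, 100%, which fell to 67.8% with 1000 bp added on both sides.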
